A study of Mus musculus with 63 samples.

Results

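The genes described here are 37 known targets of type I interferon, named by symbol and matched to their gene identifiers in a count table of 56748 genes. The rule names symbols and uses no measured value. All 37 were found in the table, and all 37 passed the filter on low counts that left 22147 genes for testing. By role, 3 belong to the ISG15 conjugation system (Isg15, Usp18, Herc6), 4 are IFIT proteins (Ifit1, Ifit2, Ifit3, Ifit3b), 2 are MX proteins (Mx1, Mx2) and 6 belong to the OAS family (Oas1a, Oas1g, Oas2, Oas3, Oasl1, Oasl2). A further 4 sense nucleic acids (Ifih1, Dhx58, Zbp1, Eif2ak2), 2 restrict viruses at membranes (Bst2, Ifitm3), 2 act on nucleotides (Rsad2, Cmpk2), and 3 are transcription factors or nuclear body proteins (Irf7, Stat2, Sp100). The PARP9 and DTX3L complex and its relative PARP14 give 3 genes (Parp9, Dtx3l, Parp14), and 8 are other interferon-induced genes (Rtp4, Ifi27l2a, Ifi35, Ifi44, Xaf1, Trim30a, Samd9l, Lgals3bp).

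RNA of mouse peritoneal macrophages was sequenced in 63 libraries of 16 groups, to ask how the R1441C change in Lrrk2 alters macrophage function with sex and age. Lrrk2 encodes a large kinase whose R1441C form is linked to inherited Parkinson's disease. The mice were B6 controls (called wild-type here) or R1441C knock-in, which carry the change in their own Lrrk2 gene, and all had received 3% thioglycollate broth 72 h before collection and buprenorphine for pain. Cells labelled IFN-γ had 100 U of interferon-gamma for 18 h, cells labelled untreated did not, and per the design text the mice labelled young were 2 to 3 months and those labelled old 18 to 21 months. In wild-type females the young libraries numbered 3 untreated and 3 IFN-γ, and the old libraries 5 and 5. Wild-type males gave 3 untreated and 5 IFN-γ libraries with each age label. Knock-in females gave 5 and 2 (young) and 5 and 5 (old), while knock-in males gave 3 and 3 (young) and 3 and 5 (old). The labels do not say that libraries of a group came from separate animals, so that p-values measure only the spread between these libraries, which may be technical.

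Type I interferons, the interferon-alpha genes and interferon-beta, are secreted when cells sense foreign or misplaced nucleic acids. They bind the receptor of IFNAR1 and IFNAR2, whose kinases JAK1 and TYK2 phosphorylate STAT proteins such as STAT2. STAT2 joins IRF9 in a complex that binds the interferon-stimulated response element (ISRE) in the promoters of antiviral genes. IFN-γ uses another receptor and acts mainly at the gamma-activated site (GAS). Many ISRE genes respond to both kinds of interferon, and IRF1 can carry part of the overlap.

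Promoter sequences of 27 of the 37 genes were in the RefSeq promoter table (GRCm38.p6, 250 bases before to 50 after a start). An ISRE core, meaning 2 copies of GAAA with any 2 bases between, on either strand and overlaps included, was found in 14 of these 27 (51.9%), against 3.99% of the 27025 genes in the table. The GAS motif TTCNNNGAA was found in 6 of 27 (22.2%), against 9.55% of all genes. In these windows 4 genes held both motifs and 11 held neither, and a match or its absence describes these letters only. Stretches of 70 bases upstream of the start are shown for 6 genes whose values are followed below, because they show how the core is repeated or single and lies in either direction. Capitals mark ISRE cores.
Isg15: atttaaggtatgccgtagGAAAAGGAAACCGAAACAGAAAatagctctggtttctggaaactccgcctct
Bst2: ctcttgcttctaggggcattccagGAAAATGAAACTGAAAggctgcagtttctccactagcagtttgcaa
Ifit1: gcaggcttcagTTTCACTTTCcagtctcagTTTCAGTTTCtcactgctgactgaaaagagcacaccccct
Oas1a: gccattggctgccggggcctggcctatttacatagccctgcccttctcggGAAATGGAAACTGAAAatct
Rsad2: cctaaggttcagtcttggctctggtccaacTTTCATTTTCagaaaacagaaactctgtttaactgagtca
Stat2: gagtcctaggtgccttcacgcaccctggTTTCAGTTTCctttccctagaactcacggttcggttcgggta
They lie at chr4:156200845-156200914 (minus strand, Isg15), chr8:71537557-71537626 (minus, Bst2), chr19:34640774-34640843 (plus, Ifit1), chr5:120907526-120907595 (minus, Oas1a), chr12:26456533-26456602 (minus, Rsad2) and chr10:128270248-128270317 (plus, Stat2). Isg15 held 3 overlapping cores, Bst2, Ifit1 and Oas1a held 2 each, and the shown cores of Rsad2 and Stat2 are single. The Bst2 promoter also held a GAS motif, which overlaps the first of its shown cores, and that of Oas1a held one outside the shown stretch.

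Several features of the libraries bear on how the labels can be read, and they come before the results. Depth was even, at 73.6 to 106.6 M counts per library. R1441C is a single change in the Lrrk2 protein, so Lrrk2 counts cannot check the genotype labels. A list of 18 genes that respond mainly to IFN-γ, such as Ciita, Cxcl9 and Gbp2, followed the age label over all libraries. The mean log2(CPM + 1) of these 18 genes, with CPM (counts relative to library size) adjusted by TMM factors, was 8.77 to 9.41 in the 36 libraries labelled old and 3.38 to 6.79 in the 27 labelled young. By treatment label the ranges overlapped almost wholly, at 3.62 to 9.40 (IFN-γ, 33 libraries) and 3.38 to 9.41 (untreated, 30 libraries). Gbp2 reached 4372 to 7510 CPM with the old label and 13.5 to 883 CPM with the young label. Within wild-type young libraries the mean over the 18 genes also separated by treatment label, at 6.17 to 6.79 (IFN-γ) against 3.38 to 4.97 (untreated) in females and 5.11 to 6.17 against 4.84 to 4.97 in males. Within knock-in young libraries the treatment labels overlapped, at 3.94 to 5.54 (IFN-γ) against 5.00 to 5.87 (untreated) in females and 3.62 to 6.36 against 4.25 to 5.39 in males. B cell genes were higher with the IFN-γ label in part of the libraries, with sums of 180 to 2892 CPM (IFN-γ) and 121 to 229 CPM (untreated). Cd22 alone had 83.5 to 176 CPM over all libraries, while no other marker of this list had a median above 39.1 CPM (Ighm). Of 10 B cell markers 9 were called higher in each of the 4 female strata (with 1 lower in 3 of these), 3 and 4 in wild-type young and old males, and 0 in both knock-in male strata.

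Antibody genes of each animal use their own mix of V segments, and the counts of 280 of these segments were compared between libraries. Their correlation exceeded 0.75 in 9 pairs of libraries of the same group and in 16 pairs that differ only in the age label, such as replicate 2 of wild-type old IFN-γ females and replicate 1 of wild-type young IFN-γ females (r = 0.959). No other pair passed this value, and all of these pairs were IFN-γ libraries. The 3 knock-in old untreated male libraries are called untreated in title and description, but their treatment field names IFN-γ. In 2 libraries labelled female the X-inactivation transcript was low, and results with and without them are given. The Y-linked gene Ddx3y had 0.624 and 0.601 CPM in these 2. It had 5.89 and 8.93 CPM in replicates 1 and 5 of wild-type young IFN-γ females. Replicates 2 and 5 of knock-in young untreated females, which 1 alternative leaves out, had 4.13 and 4.37 CPM. Other female libraries had up to 1.48 CPM and male libraries 33.9 to 67.9 CPM, and the source of these counts was not tested. Whether age or treatment labels of some libraries are wrong or exchanged was not tested, so the values given by age label or IFN-γ label may not measure age or IFN-γ. Labels are used as given below, and "old" and "young" name labels only.

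Macrophage markers were high in every library, with sums of 20730 to 40580 CPM. The list of conventional dendritic cell markers, mostly Clec9a, summed to 59.7 to 211 CPM with the old label and 3.22 to 43.8 CPM with the young label. Markers of plasmacytoid dendritic cells, the main producers of interferon-alpha, summed to 31.3 to 113 CPM with the old label and 38.3 to 159 CPM with the young label. Most of this sum was Tcf4 (27.0 to 88.0 CPM) and, in some libraries, Ly6d (0.460 to 62.4 CPM), while the defining marker Siglech lay between 0 and 0.628 CPM. Markers of monocytes had a median sum of 429 CPM with the old label and 180 CPM with the young label, with overlapping ranges. The part of these cells in the results was not tested, and in bulk RNA fewer cells of a type and less RNA per cell cannot be told apart.

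Levels between genes were compared per length, with the deposited FPKM values. Ifitm3, which blocks fusion of viral and endosomal membranes, was the most abundant of the 37 with either age label, at a median of 989 FPKM (old, 684 to 1232) and 229 FPKM (young, 144 to 388). Lgals3bp, a secreted glycoprotein that binds galectins, came second with medians of 374 and 108 FPKM, and Bst2 (tetherin), which holds budding virus at the cell surface, came next with 327 and 83.6 FPKM. The order below these 3 differed between the labels. Zbp1, a sensor of Z-form nucleic acids, ranked 4 of 37 with the old label (median 117 FPKM) and 19 with the young label (5.61 FPKM), and Ifit2 ranked 5 and 20. Mx2 (0.934 and 0.267 FPKM) and Ifi44 (1.34 and 0.0749 FPKM) were the lowest of the 37 with either label.

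Levels of the 37 genes were higher with the old label than with the young label, in both genotypes, both sexes and with either treatment label. Of the 37, 37 passed the test in this direction in 7 of the 8 strata and 35 in knock-in IFN-γ females (edgeR quasi-likelihood test, adjusted p under 0.05). Of all genes tested, 16.4% to 23% were called higher with the old label in these strata: 22% and 17.8% (wild-type females, untreated and IFN-γ), 18.7% and 19.3% (the males of that genotype), 22% and 23% (knock-in females) and 16.4% and 18.4% (the males of that genotype). The median log2 change over the 37 was 1.96 to 2.28 by stratum, while the median over all genes tested was -0.09 to 0.01. The strata share no libraries in this comparison. With libraries alike in V segment use joined, or without the 2 female libraries of low X-inactivation transcript, the counts were again 37 in 7 strata and 35 in knock-in IFN-γ females.

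The mean log2(CPM + 1) over the 37 genes lay between 6.17 and 7.39 in the 36 old libraries and between 3.83 and 4.90 in the 27 young libraries, so that the labels did not overlap. For 34 of the 37 genes singly, every old library lay above every young library, which held for 4.79% of all genes tested. The exceptions were Oas2, Ifi27l2a and Samd9l. Of 10 housekeeping genes 6 to 9 were also called higher and 0 or 1 lower, with list medians of 0.32 to 0.62 by stratum. The list held Actb, Gapdh, Hprt, Ppia, Tbp, Ywhaz, Rpl13a, Sdha, Pgk1 and B2m. Median levels of B2m were 5858 CPM (old) and 1933 CPM (young), and those of Tbp 15.7 and 16.9 CPM. Whether the list is a neutral reference was not tested.

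**Figure D1:**
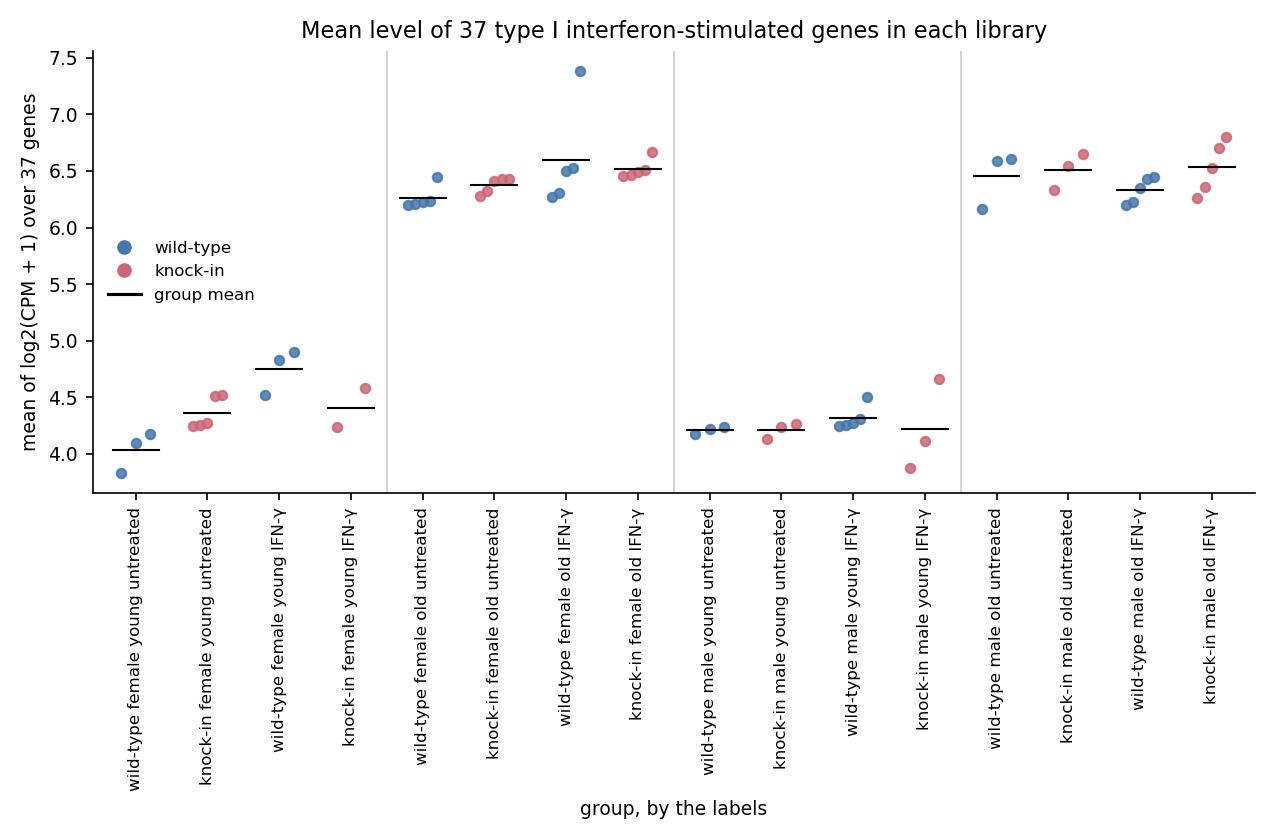
Mean of log2(CPM + 1) over the 37 genes (vertical axis) in each of 63 libraries, by group; points are libraries, blue for wild-type and red for knock-in, and bars are group means. Libraries labelled old lie at 6.17 or above and those labelled young at 4.90 or below, and 1 wild-type old IFN-γ female library stands at 7.39.

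The largest changes were those of Ifi44, Ifit2 and Zbp1. Ifi44, a cytoplasmic protein induced by interferon, had 4.04, 8.38 and 64.8 CPM (lowest, median, highest) in old libraries and 0.0102, 0.461 and 2.33 CPM in young ones. Its log2 change ran from 3.67 to 5.26 over the strata, with a mean of 4.43. Ifit2, whose product binds RNA and can promote cell death, had 345, 427 and 524 CPM in old libraries and 2.71, 21.5 and 85.3 CPM in young ones. Old libraries were close to each other for Ifit2, and young libraries were widely spread. Its log2 change was 5.69 ± 0.58 (SE, adjusted p = 6.98e-12, edgeR) in untreated wild-type females and 2.58 ± 0.48 (adjusted p = 2.16e-05) in IFN-γ wild-type females. Zbp1 had 337, 418 and 556 CPM in old libraries and 6.91, 19.9 and 59.9 CPM in young ones, and its log2 change ran from 3.01 to 4.96.

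In the ISG15 system, Isg15 encodes a ubiquitin-like protein that is attached to other proteins or secreted, Herc6 a ligase for this attachment, and Usp18 the protease that removes it and damps receptor signalling. All 3 were called higher with the old label in 8 of 8 strata. Isg15 had 47.8, 60.4 and 204 CPM in old libraries and 3.69, 6.67 and 13.8 CPM in young ones. Its log2 change ran from 2.89 ± 0.34 (IFN-γ wild-type females, adjusted p = 8.93e-10, edgeR) to 3.84 ± 0.43 (IFN-γ knock-in females, adjusted p = 1.6e-10). Usp18 had 27.9, 34.0 and 85.5 CPM against 4.53, 6.68 and 12.9 CPM, with changes of 2.06 to 2.61. The labels did not overlap for Isg15 or Usp18, and the highest old library of both is described with the treatment label.

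IFIT proteins bind foreign or uncapped RNA and block its translation, and all 4 were called in 8 of 8 strata, with mean log2 changes of 3.23 (Ifit3b) to 4.33 (Ifit2). Ifit1 had 46.8, 61.1 and 173 CPM in old libraries and 2.15, 4.68 and 11.8 CPM in young ones, and its change ran from 3.10 to 3.96. Ifit3 had 33.4, 55.1 and 159 CPM against 1.22, 4.34 and 9.62 CPM, and its change ran from 3.17 to 4.16. Neither gene overlapped between the labels. Ifit3 and Ifit3b share 31.7% and 27.4% of their 100-base windows, so the split of their counts is uncertain. MX proteins are dynamin-like GTPases that trap viral components, and both were called in 8 of 8 strata. Mx1 had 31.1, 41.9 and 127 CPM against 1.59, 4.51 and 9.47 CPM (mean log2 change 3.41), and Mx2 had a mean change of 1.84.

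OAS enzymes make oligoadenylates that switch on RNase L, an activity that mouse OASL1 lacks. Of the 6 family genes, 5 were called in 8 of 8 strata and Oas2 in 7. Oasl1 had 17.9, 43.3 and 177 CPM in old libraries and 3.31, 5.81 and 8.94 CPM in young ones, with changes of 2.59 to 3.33. Oas1a had 103, 134 and 230 CPM against 41.4, 54.3 and 76.6 CPM, with changes of 1.17 to 1.53, and Oas1g had 21.1, 31.8 and 73.6 CPM against 6.84, 10.5 and 18.5 CPM. The genes Oasl1 and Oasl2 had larger mean changes (3.04 for Oasl1 and 2.57 for Oasl2) than Oas1a (1.38), Oas1g (1.65), Oas2 (1.23) and Oas3 (2.18), a difference between genes that was not tested. Oas1a and Oas1g share 40.9% and 31.2% of their 100-base windows, so their counts are uncertain between the copies.

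Among the sensors, Ifih1 (MDA5) and Dhx58 (LGP2) detect double-stranded RNA and Eif2ak2 (PKR) halts translation on binding it. All 4 sensors including Zbp1 were called in 8 of 8 strata, with mean changes of 1.11 (Eif2ak2), 1.19 (Ifih1), 1.90 (Dhx58) and 4.20 (Zbp1). Eif2ak2 had 64.8, 80.3 and 110 CPM in old libraries and 29.3, 39.7 and 46.6 CPM in young ones. The membrane factors Bst2 and Ifitm3 were called in all strata too. Bst2 had 224, 297 and 367 CPM against 55.3, 76.0 and 94.7 CPM, with changes of 1.62 ± 0.10 to 2.35 ± 0.13. Ifitm3 had 458, 685 and 837 CPM against 99.3, 156 and 266 CPM, with changes of 1.63 to 2.31.

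Rsad2 (viperin) makes a chain-terminating nucleotide, and Cmpk2 supplies its substrate. Both genes lie on opposite strands with starts 12763 bases apart in the GRCm38 annotation, and both were called in 8 of 8 strata. Rsad2 had 34.6, 50.3 and 94.1 CPM in old libraries and 11.2, 16.05 and 20.6 CPM in young ones, with a mean change of 1.70, and Cmpk2 had a mean change of 2.11. Of the transcription factors, Irf7, which drives interferon-alpha genes, had 155, 245 and 790 CPM against 19.2, 31.7 and 71.6 CPM, with changes of 2.69 to 3.18. Stat2 had 194, 218 and 271 CPM against 42.6, 51.3 and 73.0 CPM, with changes of 1.66 ± 0.11 to 2.28 ± 0.12. Sp100, a protein of nuclear bodies, changed least of the 3 at 129, 143 and 244 CPM against 65.9, 76.0 and 126 CPM (0.76 to 1.18).

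Parp9 and its ligase partner Dtx3l had nearly the same mean change, 2.14 and 2.16, and Parp14 had 1.69. Parp9 had 164, 187 and 212 CPM in old libraries and 33.9, 41.0 and 57.6 CPM in young ones, and Dtx3l had 193, 222 and 260 CPM against 35.0, 48.4 and 78.6 CPM. Of the other 8 genes, 7 were called in 8 of 8 strata and Samd9l in 7. Lgals3bp had 931, 1096 and 1366 CPM against 251, 309 and 628 CPM, with changes of 1.29 to 2.08. Ifi27l2a, which encodes a small hydrophobic protein, had 29.0, 45.1 and 174 CPM against 6.88, 13.2 and 33.1 CPM, with changes of 1.49 to 2.10. The 2 labels overlapped for Ifi27l2a, where 99.3% of pairs of an old and a young library had the old one higher.

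**Figure D2:**
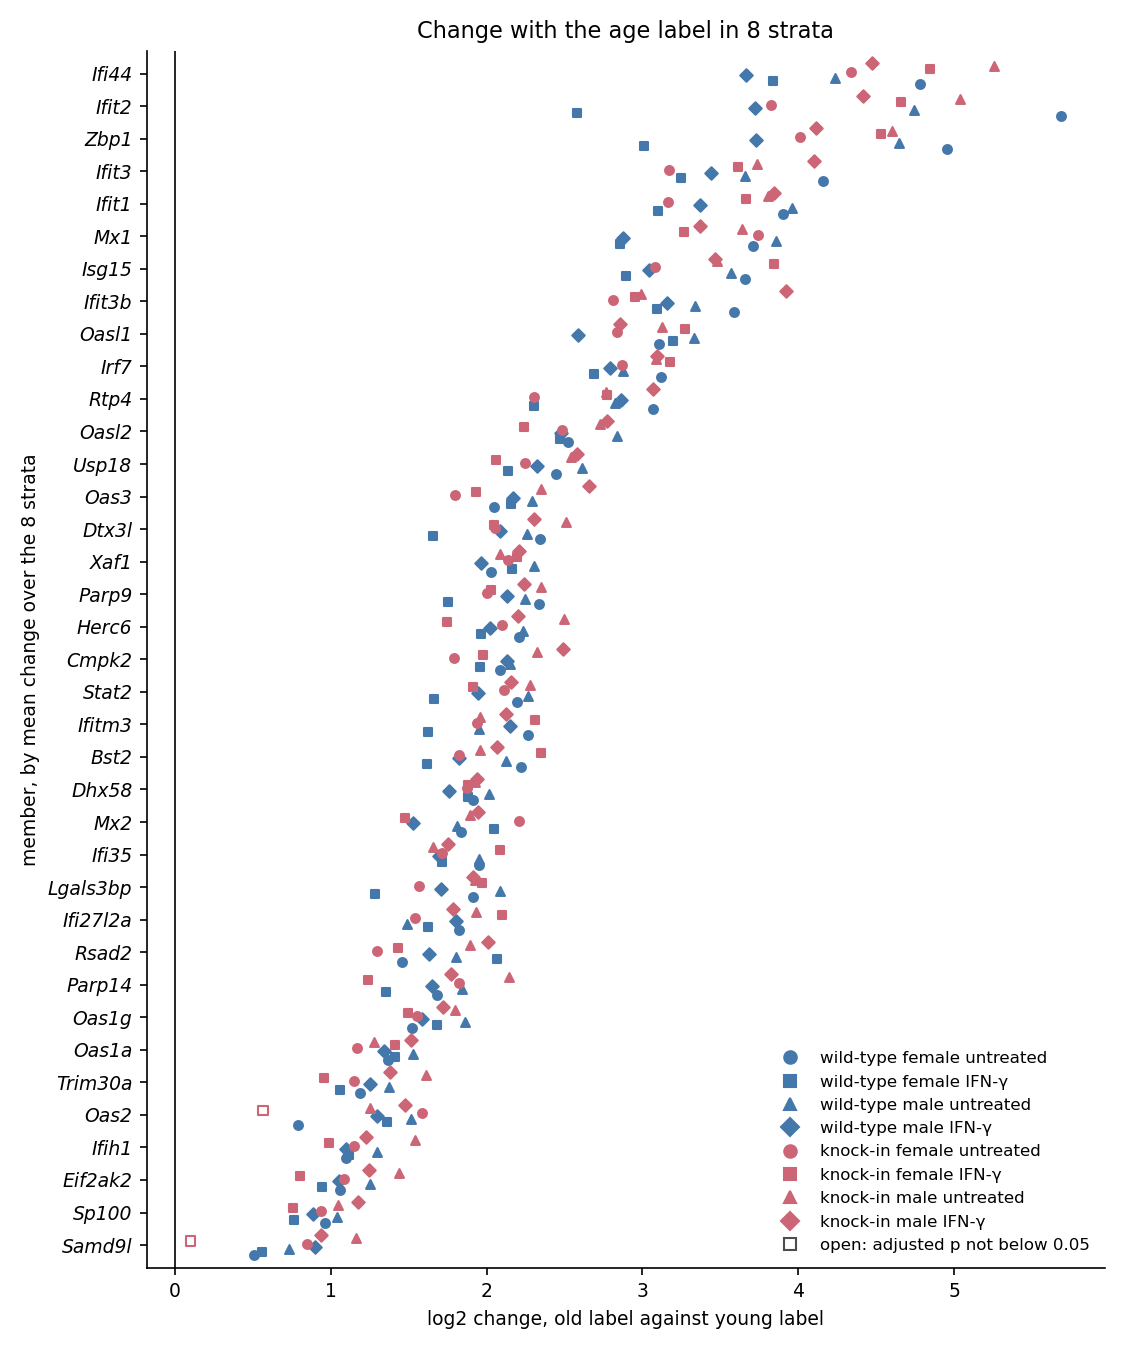
Log2 change between old and young label (horizontal axis) of each of the 37 genes in 8 strata of genotype, sex and treatment label; filled points passed the adjusted p threshold of 0.05 and open points did not. All points lie to the right of 0, from Ifi44 at a mean of 4.43 to Samd9l at a mean of 0.72, and the 2 open points are Oas2 and Samd9l in knock-in IFN-γ females.

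Oas2 and Samd9l were not called in knock-in IFN-γ females, where the young group holds 2 libraries. Oas2 had 23.7 and 27.1 CPM in the 2 young libraries and 33.3 to 40.4 CPM in the 5 old ones, a log2 change of 0.57 ± 0.37 (adjusted p = 0.202, edgeR). Samd9l, an antiviral protein gene, had 88.8 and 90.5 CPM in the young libraries and 89.5 to 104 CPM in the old ones, a change of 0.10 ± 0.19 (adjusted p = 0.693). For Samd9l the ranges overlapped and for Oas2 they did not. In knock-in young untreated females both genes were lower than in the 2 IFN-γ libraries, as given with the treatment label. Over all libraries Samd9l had 64.3, 102 and 188 CPM with the old label and 40.2, 57.8 and 117 CPM with the young label, and Oas2 had 16.9, 29.5 and 80.0 CPM against 7.39, 11.8 and 27.1 CPM.

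Genes with and without an ISRE core in the promoter table covered much the same range of age-label changes. The mean log2 change over strata had a median of 2.02 (1.11 to 3.64) in the 14 genes with a core, 2.14 (0.72 to 4.43) in the 13 without one and 2.02 (1.23 to 4.20) in the 10 with no entry. These values are a description, and the difference was not tested.

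Among other genes of the pathway, the ligands were almost unread in these libraries. Of 18 type I interferon genes, 6 had no count in any of the 63 libraries, and Ifnb1 had 47 counts in all of them together. Ifnz alone passed the filter, with a median of 0 CPM in old and 0.0686 CPM in young libraries, and it was lower with the old label in 4 of 8 strata. Of the 7 receptor and signalling genes, 5 were called higher with the old label in each stratum, among them Stat3 and Irf9. Stat3, which carries signals of many cytokine receptors, changed by 0.76 to 1.27. Irf9 had 66.3, 75.4 and 99.5 CPM against 38.9, 43.9 and 51.5 CPM, with changes of 0.70 to 0.85. The receptor chain Ifnar2 changed by 0.39 to 0.55, while Ifnar1 was called in none of the strata (-0.11 to 0.11, adjusted p of 0.197 to 0.972, edgeR). Jak1 was lower in 3 strata, with changes of -0.22 to 0.05 over all 8.

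Among 9 genes that restrain the pathway, of which Usp18 is also a member of the 37, 5 or 6 were higher with the old label in each stratum and 2 or 3 lower. Socs3, an inhibitor of cytokine receptor kinases, changed by 1.64 to 3.27, and the phosphatase genes Ptpn2 and Ptpn6 by 0.96 to 1.31 and 1.18 to 1.99. Nlrc3 and Trim24 were lower in 8 of 8 strata, with changes of -1.44 to -1.03 and -0.78 to -0.40. Of 14 tested genes for sensing upstream of interferon, 7 to 10 were higher and 1 to 3 lower. Irf8 (1.34 to 2.34) and Myd88 (0.96 to 1.49) were among those higher. Of 48 tested further interferon-stimulated genes, 41 to 45 were higher and 1 or 2 lower, with list medians of 1.20 to 1.48. Trim21, which binds antibody-coated virus, changed by 1.38 to 1.81 and Ifi204, a DNA sensor, by 1.78 to 2.44. The 18 genes that respond mainly to IFN-γ had larger medians, 2.61 to 4.56 by stratum, and 17 or 18 of them were higher. Cd274 (PD-L1) changed by 2.33 to 3.32 and Irf1 by 2.65 to 4.61.

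With the IFN-γ label, part of the 37 genes were called higher than in untreated libraries in wild-type females, and 0 to 3 were called in each of the other strata. In wild-type young females 21 of 37 were higher and 0 lower, when 10% of all genes tested were called higher and 6.52% lower. In wild-type old females 16 were higher and 0 lower, against 9.13% and 11% of all genes. In knock-in young females 2 were higher and 1 lower (11.8% and 10.1% of all genes). In knock-in old females 1 was higher and 0 lower (2.77% and 3.78%). None of these knock-in counts exceeds the share of all genes. In the 4 male strata edgeR called 0 of 37, as did DESeq2. All genes called in either direction made up 0.438% (wild-type young males), 2.89% (wild-type old males), 0.0813% (knock-in young males) and 0.176% (knock-in old males). At an unadjusted p under 0.05 the members in these male strata numbered 2 higher and 1 lower, 1 higher and 6 lower, 1 higher and 0 lower, and 0 of either. The share of all genes at this unadjusted threshold was not counted, so these numbers cannot be set against the shares above. The median change over the 37 was 0.61 in wild-type young females and 0.46 in wild-type old females, and -0.17 to 0.19 in the other 6 strata.

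**Figure D3:**
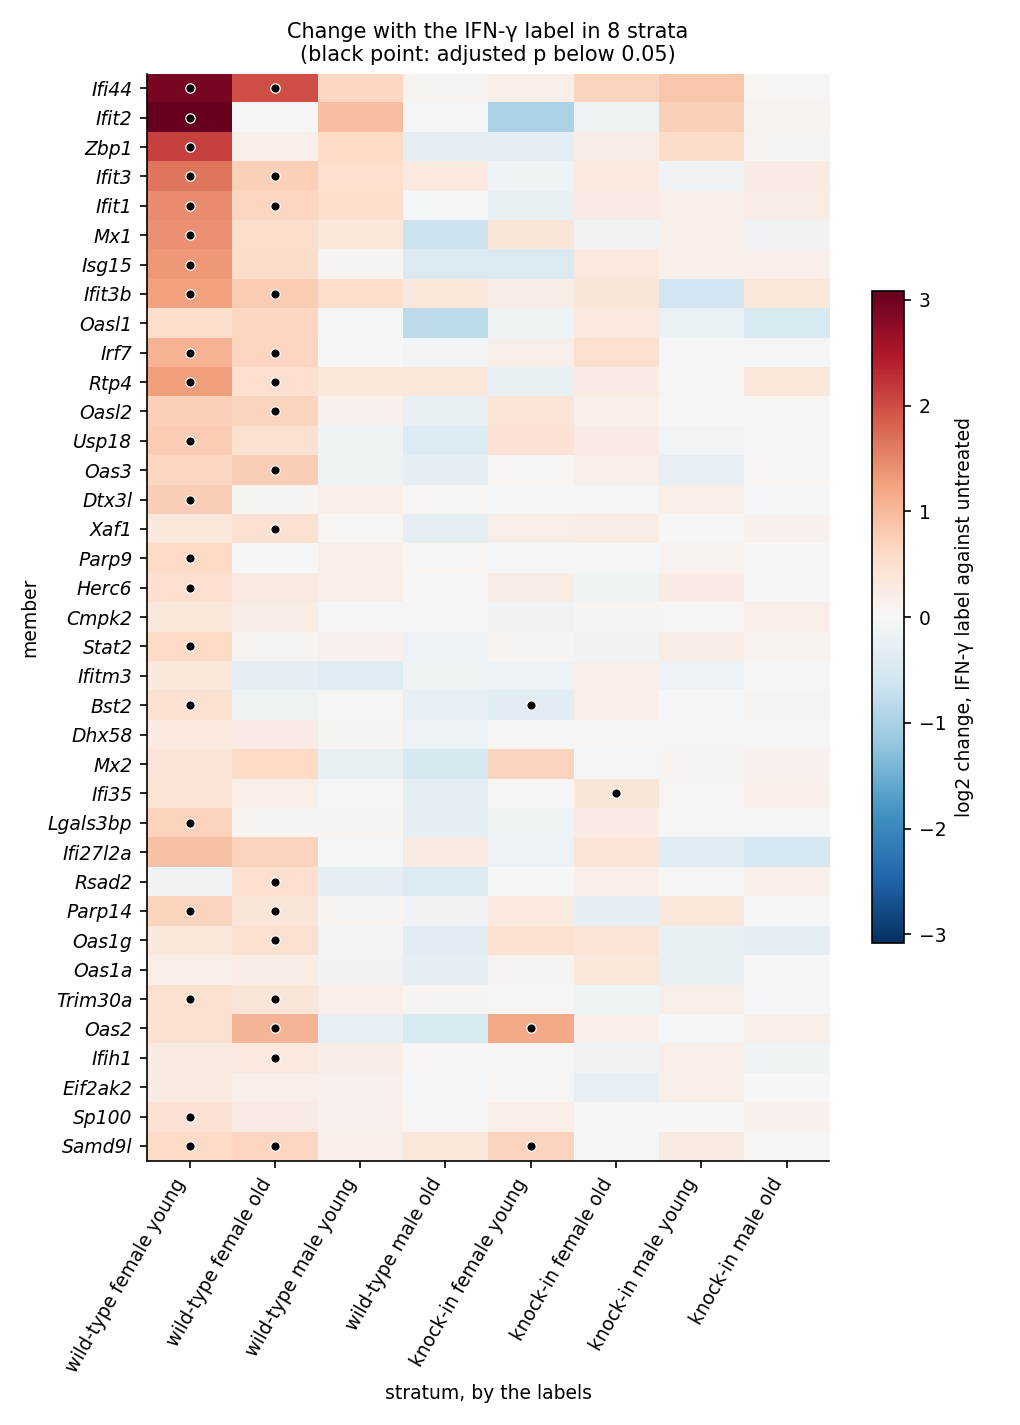
Log2 change between the IFN-γ label and the untreated label for each of the 37 genes (rows, ordered by their change with the age label) in 8 strata (columns); red is higher with the IFN-γ label, and black points mark an adjusted p below 0.05. Called genes stand mainly in the 2 wild-type female columns, 21 in the young and 16 in the old stratum.

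In wild-type young females Ifit2 changed most. It had 5.84, 3.096 and 15.3 CPM in the 3 untreated libraries and 66.0, 53.8 and 85.3 CPM in the 3 IFN-γ libraries, a log2 change of 3.08 ± 0.53 (adjusted p = 2.86e-05, edgeR). Zbp1 had 11.3, 6.91 and 19.4 CPM against 59.9, 43.7 and 58.3 CPM (2.11 ± 0.36, adjusted p = 2.41e-05), and the groups did not overlap for either gene. Dtx3l had the smallest p of the 37, with 41.9, 39.3 and 44.0 CPM against 73.1, 61.7 and 78.6 CPM (0.77 ± 0.12, adjusted p = 4.89e-06). Isg15 had 4.13, 3.69 and 6.73 CPM against 13.8, 10.5 and 12.2 CPM (1.33 ± 0.35, adjusted p = 0.00543). Bst2 had 55.3, 63.2 and 79.8 CPM against 88.5, 93.4 and 94.7 CPM (0.48 ± 0.11, adjusted p = 0.00105). Of the 18 IFN-γ genes 16 were higher in the same stratum, with a list median of 2.41. Without replicate 1 of the IFN-γ group, whose B cell sum was 2892 CPM against 485 and 696 CPM in the other 2, 12 of 37 genes were called, and in a fit of only the 2 groups compared 0 were. Markers of many other cell types were called higher with the IFN-γ label too. They were 9 of 10 for B cells (list median 5.20), 7 of 10 for T and NK cells (3.95) and 6 of 6 for mast cells (3.30). They were 5 of 6 for resident macrophages (2.49), 4 of 5 for monocytes (2.07) and 4 of 5 for red cells (4.67). For dendritic cells they were 4 of 6 tested plasmacytoid (2.04) and 4 of 6 conventional (1.77) markers. Of 6 tested neutrophil markers 0 were higher and 2 lower (-1.32), and of 7 mesothelial and fibroblast markers 0 were called (0.20). The part of these cells in the result was not tested.

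In wild-type old females the 16 calls rested largely on 1 library. Replicate 2 of the IFN-γ group had a mean log2 level over the 37 genes of 7.39, the highest of all 63 libraries, while the other 4 lay between 6.27 and 6.53 and the 5 untreated libraries between 6.20 and 6.44. Irf7 had 790 CPM in replicate 2 against 189 to 324 CPM in the other 4 and 185 to 310 CPM in the untreated group. Ifi27l2a had 174 CPM against 29.0 to 53.2 CPM, and Oasl1 had 177 CPM against 24.6 to 63.7 CPM. Ifit2, by contrast, had 345 CPM in replicate 2, the lowest of the 5. Without this library 2 of 37 genes were called, Ifi44 (1.20, adjusted p = 0.00288) and Samd9l (0.47, adjusted p = 0.0243). Without untreated replicate 2, 3 or 5 the count was 10, 10 or 9, and in a fit of only the 2 groups compared it was 1.

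The same library differed in its markers. Replicate 2 had a B cell sum of 2075 CPM (303 to 812 CPM in the other 4), a resident peritoneal macrophage sum of 2113 CPM (371 to 659 CPM) and a monocyte sum of 945 CPM (253 to 483 CPM), and their part in the result was not tested. Over the whole stratum 9 of 10 B cell markers, 8 of 10 T and NK cell markers and 6 of 6 mast cell markers were called higher. So were 5 of 6 resident macrophage markers, 5 of 5 red cell markers and 1 of 5 monocyte markers with the IFN-γ label. Of 6 tested neutrophil markers 1 was higher and 2 lower, and of 7 mesothelial and fibroblast markers 0 were called. Of the 18 IFN-γ genes 0 were called in this stratum, and their mean log2 level in replicate 2 was 9.30, beside 9.28 in replicate 1. Genes that stayed apart from the untreated group with all 5 libraries included Ifi44, with 15.7, 64.8, 11.9, 10.2 and 17.1 CPM against 7.38, 5.99, 6.35, 4.61 and 5.84 CPM (1.99 ± 0.34, adjusted p = 3.31e-05, edgeR).

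**Figure D4:**
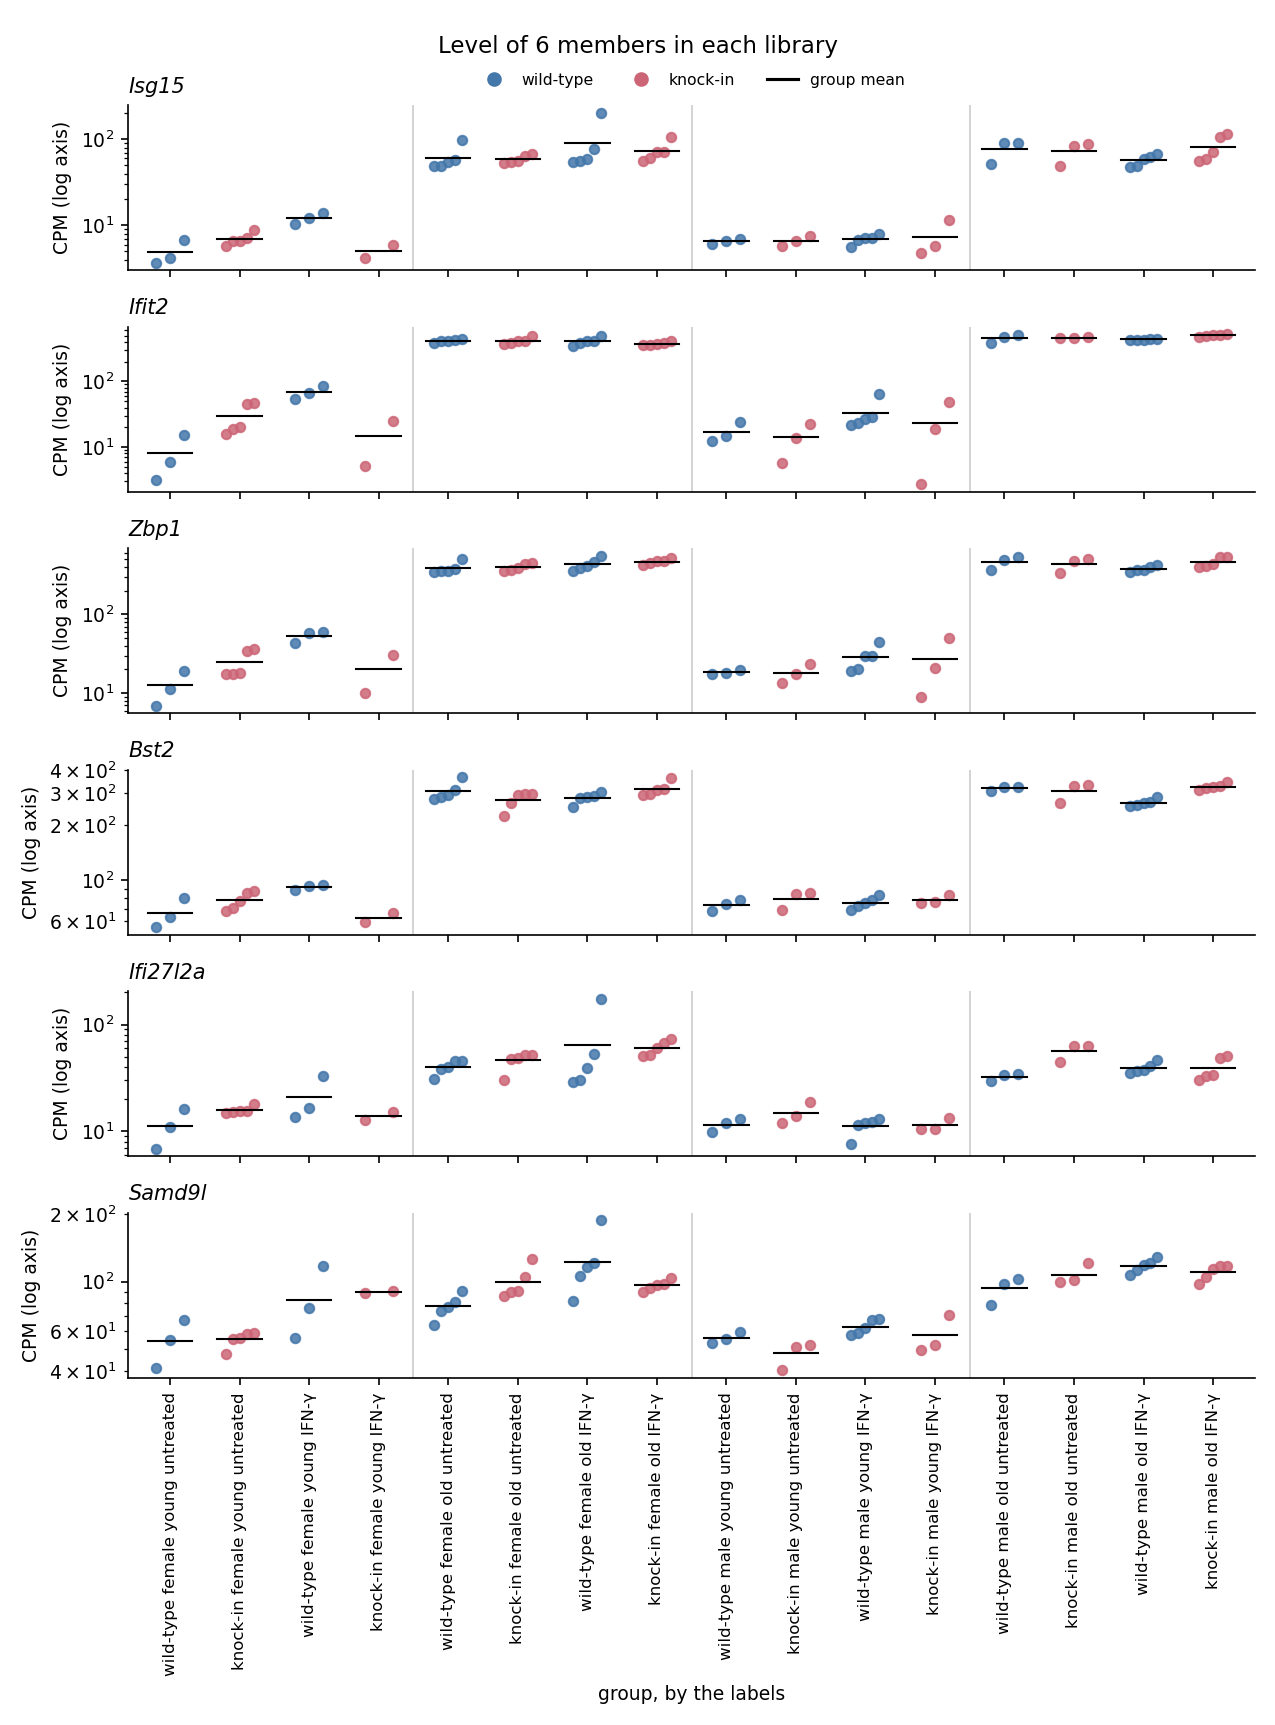
Level in CPM on log axes of Isg15, Ifit2, Zbp1, Bst2, Ifi27l2a and Samd9l in each library, by group; points are libraries and bars are group means. Isg15, Ifit2, Zbp1 and Bst2 are separated by age label, and 1 wild-type old IFN-γ female library is high for Isg15 (204 CPM) and Ifi27l2a (174 CPM) but not for Ifit2 (345 CPM).

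Knock-in females had few calls with the IFN-γ label. Oas2 had 23.7 and 27.1 CPM in the 2 young IFN-γ libraries and 9.95 to 13.1 CPM in the 5 untreated ones (1.16 ± 0.34, adjusted p = 0.0128, edgeR), and Samd9l had 88.8 and 90.5 CPM against 47.5 to 59.3 CPM (0.69 ± 0.18, adjusted p = 0.00615). Bst2 was lower, with 58.8 and 65.9 CPM against 67.9 to 87.7 CPM (-0.32 ± 0.11, adjusted p = 0.037). The groups did not overlap for these 3 genes, but leaving out IFN-γ replicate 1 or 2 left 0 or 1 of the 3 called. In knock-in old females Ifi35 had 39.0 to 48.8 CPM against 28.7 to 35.9 CPM (0.38 ± 0.12, adjusted p = 0.0416), and the call was lost without IFN-γ replicate 1, 2 or 3 or untreated replicate 1 or 2. Over the 8 strata the mean change was largest for Ifi44 (0.93), Ifit2 (0.46) and Ifit3 (0.44). It was smallest for Ifitm3 (-0.08), Oasl1 (-0.03) and Rsad2 (0.01), and of these 3 genes Rsad2 was called in 1 stratum and the other 2 in none.

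The difference of the IFN-γ label change between old and young was tested itself, averaged over both sexes. In wild-type 7 of 37 genes had a smaller change with the old label, when 1.49% of all genes had a smaller and 0.167% a larger one: Ifit2 (-2.06 ± 0.44, adjusted p = 0.00391, edgeR), Zbp1 (-1.43 ± 0.31, adjusted p = 0.0041), Lgals3bp (-0.50), Bst2 (-0.45), Dtx3l (-0.43), Stat2 (-0.42) and Parp9 (-0.35). Of the 18 IFN-γ genes 15 did so too. In knock-in, Bst2 had a larger change with the old label (0.32 ± 0.10, adjusted p = 0.0372, edgeR) and Parp14 a smaller one (-0.48 ± 0.16, adjusted p = 0.0485). Of all genes 4.83% and 5.26% were called in these directions, and 1 of 37 in each direction does not exceed that. Leaving out single libraries left 0 to 3 calls in knock-in.

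Between genotypes, a few of the 37 genes were called in 2 of 8 strata. In young IFN-γ females 7 were lower in knock-in and 0 higher, when 3.79% of all genes tested were lower and 2.95% higher. In old IFN-γ males 2 were higher and 0 lower, against 4.29% and 2.34% of all genes. The latter count is near the share of all genes. In the other 6 strata edgeR called 0 of 37. The share of all genes called there was 0.452% (young untreated females), 0.0135% (young untreated males), 0.149% (young IFN-γ males), 0.0181% (old untreated females), 0.00452% (old untreated males) and 5.81% (old IFN-γ females). At an unadjusted p under 0.05 the members higher and lower in these 6 strata numbered 11 and 0, 0 and 1, 0 and 1, 5 and 0, 1 and 0, and 0 and 10 in the same order. The shares of all genes given above are at the adjusted threshold. Shares at the unadjusted one were not counted, so whether these numbers exceed them is not known. DESeq2 called 4 in young untreated females, 1 in old IFN-γ females and 0 in the other 4. The median change over the 37 ran from -0.22 (young IFN-γ females) to 0.28 (young untreated females).

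In young IFN-γ females, 2 knock-in libraries were compared with 3 wild-type libraries. Isg15 had 4.19 and 6.00 CPM in knock-in and 13.8, 10.5 and 12.2 CPM in wild-type, a log2 change of -1.25 ± 0.40 (adjusted p = 0.0463, edgeR). Ifit2 had 5.17 and 24.7 CPM against 66.0, 53.8 and 85.3 CPM (-2.19 ± 0.59, adjusted p = 0.0172), and Zbp1 had 10.2 and 30.1 CPM against 59.9, 43.7 and 58.3 CPM (-1.42 ± 0.40, adjusted p = 0.0233). All knock-in libraries lay below all wild-type libraries for these 3 antiviral genes. Bst2 had 58.8 and 65.9 CPM against 88.5, 93.4 and 94.7 CPM (-0.56 ± 0.12, adjusted p = 0.00361). Lgals3bp had 299 and 315 CPM against 628, 348 and 436 CPM (-0.62 ± 0.15, adjusted p = 0.00919). Dtx3l had 44.2 and 55.2 CPM against 73.1, 61.7 and 78.6 CPM (-0.52 ± 0.13, adjusted p = 0.0126), and its partner Parp9 had 38.2 and 47.7 CPM against 56.7, 51.9 and 57.6 CPM (-0.37 ± 0.11, adjusted p = 0.026). The groups did not overlap for these 4 genes either. All of these genes were picked by the test on the same libraries, so their order is a description and no further support. Of all 37 genes, 14 lay below and 3 above without overlap in this stratum, and the share over all genes was not counted.

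Of the 18 IFN-γ genes 15 were lower in the same stratum, with a list median of -1.62. The mean log2 level of the IFN-γ genes was 3.94 and 5.54 in the 2 knock-in libraries and 6.17 to 6.79 in the 3 wild-type libraries. It was 5.00 to 5.87 in the 5 untreated knock-in young female libraries. Without knock-in replicate 1, 0 of the 37 genes were called, and without wild-type replicate 1 the count was 2. With the replicate number as a block 2 were called, and in a fit of only these groups 0. Same-numbered libraries did not deviate together in this stratum (2 pairs, correlations of -0.27 and -0.20), so the block has no measured basis here. Markers of several other cell types were also lower in the 2 knock-in libraries. Monocyte sums were 105 and 115 CPM against 219 to 351 CPM, and conventional dendritic cell sums 6.09 and 13.6 CPM against 22.3 to 43.8 CPM. Called lower were 2 of 5 monocyte markers (list median -2.06), 4 of 10 T and NK cell markers (-2.25) and 2 of 10 B cell markers (-1.92). So were 3 of 6 tested plasmacytoid dendritic cell markers (-2.12), 1 of 6 conventional dendritic cell markers (-1.20) and 1 of 6 mast cell markers (-2.35). Resident macrophage (-1.49) and mesothelial and fibroblast (-0.74) lists had 0 called. Neutrophil (0.27) and red cell (0.72) lists had medians above 0, with 0 called. B cell sums overlapped, at 316 and 521 CPM against 485 to 2892 CPM, and the part of these cells in the result was not tested. Leaving out 1 of 2 knock-in libraries assumes that the other varies like the remaining groups.

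In old IFN-γ males Bst2 had 348, 324, 320, 327 and 314 CPM in knock-in and 259, 288, 268, 255 and 266 CPM in wild-type, a log2 change of 0.29 ± 0.08 (adjusted p = 0.031, edgeR). Rsad2 had 80.8, 66.8, 54.2, 54.9 and 47.9 CPM against 39.9, 41.8, 40.9, 48.6 and 50.1 CPM (0.46 ± 0.14, adjusted p = 0.0417). The groups did not overlap for Bst2 and overlapped for Rsad2. Leaving out single libraries left 0 to 2 of these calls, and 0 remained without any one of knock-in replicates 1, 2, 3 or 4 or wild-type replicates 1, 4 or 5. With the replicate number as a block 0 were called, though same-numbered libraries did not deviate together in this stratum (correlations of -0.42 to 0.23). Isg15, which was not called, had 116, 107.3, 59.3, 70.9 and 56.4 CPM against 59.5, 67.5, 62.2, 47.8 and 48.8 CPM.

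**Figure D5:**
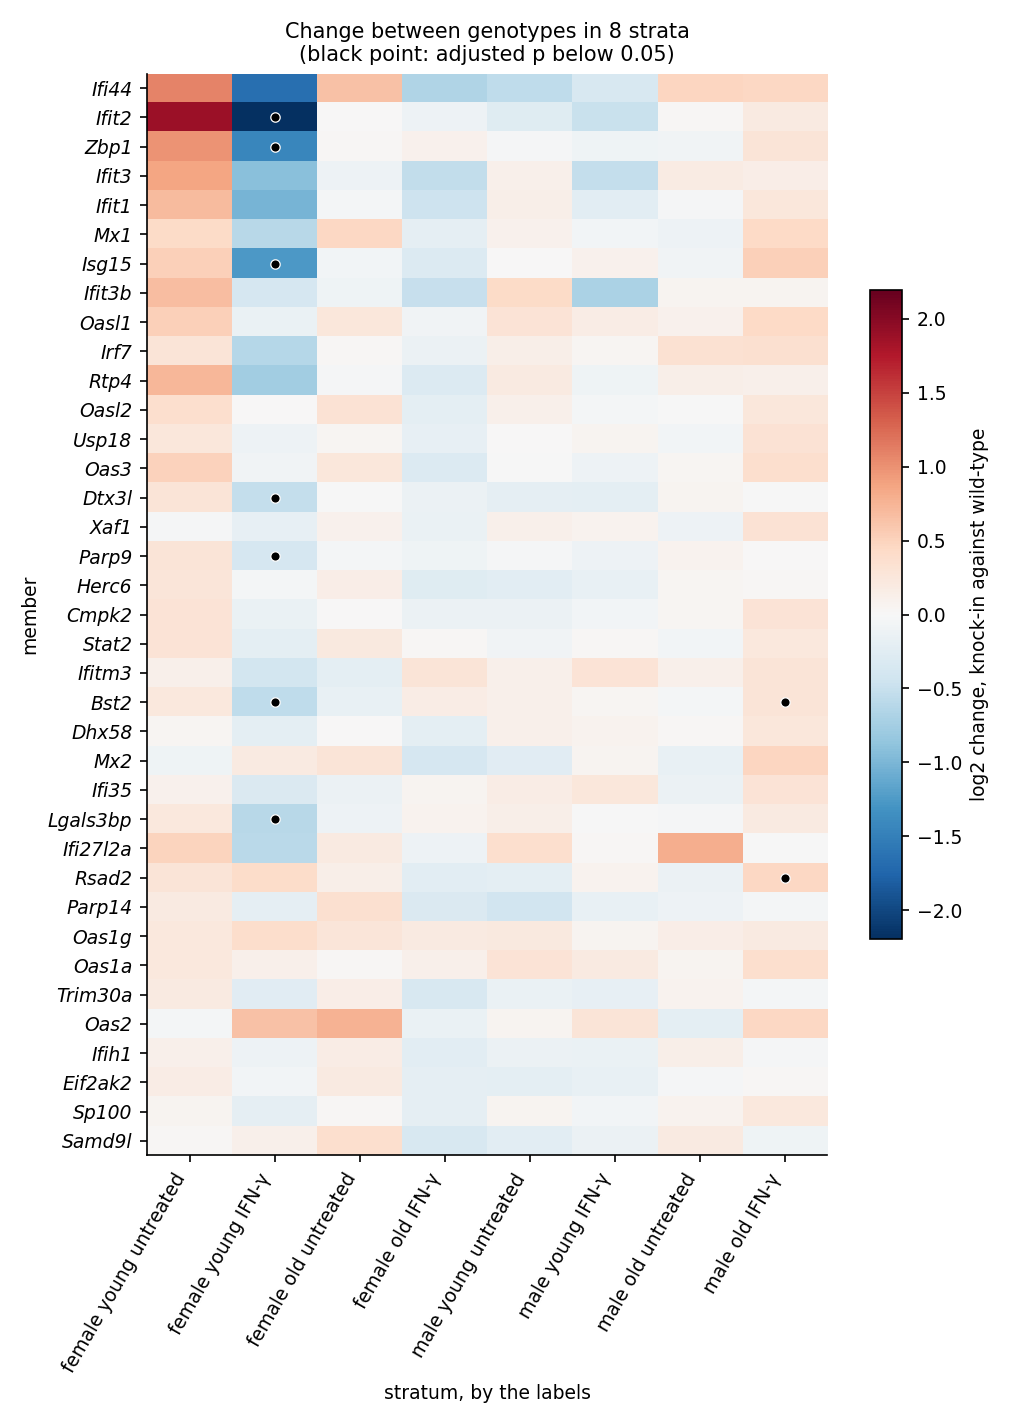
Log2 change between knock-in and wild-type for each of the 37 genes (rows, ordered by their change with the age label) in 8 strata of sex, age label and treatment label (columns); red is higher in knock-in, and black points mark an adjusted p below 0.05. The 7 genes lower in young IFN-γ females and the 2 higher in old IFN-γ males are the marked points.

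Averaged over the 8 strata, the genotype change was within 0.23 of 0 for each of the 37 genes. Oas2 (0.23), Oas1g (0.21) and Oasl1 (0.19) had the largest means and Ifit2 (-0.12), Ifit3 (-0.10) and Ifit1 (-0.09) the smallest, and none of these but Ifit2 was called in any stratum. Ifit2 spanned the widest range, from -2.19 in young IFN-γ females to 1.87 in young untreated females. In the latter stratum Ifit2 had 15.57, 46.2, 20.4, 19.1 and 46.1 CPM in knock-in and 5.84, 3.096 and 15.3 CPM in wild-type libraries (1.87 ± 0.48, adjusted p = 0.0504, edgeR), and it was not called. Without wild-type replicate 5, 5 of the 37 genes were called higher in knock-in there.

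Whether the genotype change depends on the age label was tested as an interaction. With the IFN-γ label Bst2 alone was called, with a knock-in change that was higher by 0.49 ± 0.10 with the old label (adjusted p = 0.00805, edgeR), when 0.361% of all genes were called in this direction and 0.0361% in the other. The call was lost without replicate 1 of knock-in young IFN-γ females (adjusted p = 0.116), with libraries alike in V segment use joined (adjusted p = 0.0901) and with the replicate block (adjusted p = 0.197). In untreated libraries 0 were called, of all genes 0%, with 1 higher and 2 lower at an unadjusted p under 0.05 and 0 by DESeq2. Whether it depends on sex was tested within each age and treatment label, and edgeR called 0 of 37 in all 4. The share of all genes called was 0% (young untreated), 0.253% (young IFN-γ), 0% (old untreated) and 0.0542% (old IFN-γ). The members at an unadjusted p under 0.05 numbered 9 higher, 8 lower, 2 higher and 11 lower in females relative to males, and DESeq2 called 1 in young IFN-γ libraries and 0 in the others. Shares of all genes at an unadjusted p under 0.05 were not counted for either interaction, so these numbers have no background to be set against. Bst2 was thus the 1 gene of the 37 called between genotypes in both directions, lower in young IFN-γ females and higher in old IFN-γ males. The count of calls in old IFN-γ males was near the share of all genes. The Bst2 call there was lost without any one of several libraries, as given above. It was also lost with no filter, with libraries alike in V segment use joined and with the replicate block. Fits of only the compared groups, or without wild-type old IFN-γ female 2 and young IFN-γ female 1, called 6 and 5 of 37 there.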

How the data were processed

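Polyadenylated RNA of 63 libraries was sequenced. The authors deposited a table of raw counts per gene and one of FPKM values. Reads were handled with STAR 2.7.9a, DESeq2 1.40.2 and the build GRCm39, per the submitters' processing notes, which give no roles. The counter, its annotation and its strand setting were not given in the sources used here, so counts of overlapping genes may mix. Deposited counts were tested in R 4.3.3 with the quasi-likelihood test of edgeR 4.0.16 (TMM scaling, filterByExpr, 1 fit of 16 groups), with Benjamini-Hochberg adjustment within each contrast and a threshold of 0.05. TMM factors ran from 0.886 to 1.23. Standard errors are the log2 change over the root of the F statistic. Mean levels over genes are of log2(CPM + 1). Overlap of groups within a stratum is described for named genes only, and its share over all genes was not counted. The deposited FPKM values served only to compare levels between genes. Groups follow the titles, and replicate numbers follow the descriptions. No pair of libraries of a group differed by less than sampling noise.

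The members, lists and tests were chosen with earlier results of these data known. By the rule for named genes, all 37 members are named by role. Values are given for 14 of them that represent the roles, for the 3 largest and 3 smallest mean changes of each comparison, and for genes called between genotypes. Of each pathway list up to 4 genes with the smallest p over the age label are named, and Ifnar1, Jak1, Nlrc3 and Trim24 were named after their values were seen. 1 gene of the signalling list is not reported here. Alternatives were DESeq2 1.42.0, RLE size factors, no filter, only the compared groups, a replicate block, and each library left out. Alternatives chosen after seeing the data joined libraries alike in V segment use, and left out doubted libraries. The fit was tested on simulated data with changes set only between knock-in and wild-type old untreated females (5 and 5 libraries). Simulated libraries were independent. The test covers neither comparisons of smaller groups nor libraries from a shared animal. Coordinates are RefSeq's (GRCm38.p6), not the build of the counts.

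Same-numbered libraries deviated together (every correlation over 0.1, at least 3 pairs) in 4 strata: the age label in knock-in IFN-γ males, wild-type untreated females and wild-type IFN-γ males, and the IFN-γ label in knock-in old females. No genotype stratum met this rule, so the block has no measured basis for genotype. V segment use was also alike in some old and young libraries of different numbers, such as old replicate 2 and young replicate 1 of wild-type IFN-γ females. With the block, 36 genes were called with the age label in wild-type untreated females.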

Additional observations from a re-analysis of the deposited data

Results flagged for a closer look

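In 25 of 120 sets of values (the mean over the 37 genes and single genes, in groups of 5), 1 library stood apart from the rest by Dixon's criterion. Chance meets it in about 1 of 20 independent sets of normal values. These sets share libraries, and the mean includes the single genes, so the count of 25 cannot be set against that rate. Replicate 2 of wild-type old IFN-γ females was highest for the mean over the 37 genes (7.39), Isg15 (204 CPM), Ifit1 (173 CPM), Mx1 (127 CPM), Oas1a (230.1 CPM), Oasl1 (177 CPM), Rsad2 (94.1 CPM), Usp18 (85.5 CPM), Irf7 (790.0 CPM) and Ifi27l2a (174 CPM). Replicate 1 of wild-type old untreated females was highest for the mean (6.44), Isg15 (97.4 CPM), Oasl1 (83.6 CPM), Usp18 (45.0 CPM) and Zbp1 (500.2 CPM). Replicate 3 of knock-in old IFN-γ females was highest for the mean (6.67), Oas1a (197 CPM), Oasl1 (99.6 CPM), Irf7 (377 CPM) and Lgals3bp (1323 CPM).

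Among knock-in untreated females, old replicate 4 was lowest for Usp18 (29.5 CPM), old replicate 1 lowest for Ifi27l2a (30.4 CPM) and young replicate 1 highest for Ifi27l2a (18.0 CPM). Replicate 1 of wild-type young IFN-γ males was highest for the mean (4.51) and Ifit1 (9.39 CPM).

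The change with the IFN-γ label differed between age labels in wild-type for Ifit2 (-2.06), Zbp1 (-1.43), Lgals3bp (-0.50), Bst2 (-0.45), Dtx3l (-0.43), Stat2 (-0.42) and Parp9 (-0.35), all smaller with the old label. In knock-in it differed for Bst2 (0.32) and Parp14 (-0.48). The genotype change of Bst2 in IFN-γ libraries differed between age labels by 0.49.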

How the results depend on the processing

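No called value changed sign under any alternative run. The age-label counts stayed within 33 to 37 of 37 in every stratum and setting, and the mean over the 37 genes differed between age labels by 2.03 to 2.20 under 4 other scalings, pseudocounts and joinings. Counts of genes called with treatment label and genotype were less stable, and the cause was not tested. Reported counts were 0 (genotype, young untreated females), 7 (genotype, young IFN-γ females), 2 (genotype, old IFN-γ males), 0 (genotype, old IFN-γ females), 21 and 16 (IFN-γ label, wild-type young and old females), 0 (IFN-γ label, wild-type old males), 3 and 1 (IFN-γ label, knock-in young and old females), 7 and 2 (IFN-γ label by age label, wild-type and knock-in) and 1 (genotype by age label, IFN-γ).

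With DESeq2 the genotype counts were 4 in young untreated females and 1 in old IFN-γ females, and those of genotype by age label (IFN-γ) and by sex (young IFN-γ) were 4 and 1. With RLE size factors they were 1 in young untreated females, 1 in old IFN-γ males, 0 for the IFN-γ label in knock-in old females and 1 for IFN-γ label by age label in knock-in. With no filter the last 3 were 0, 0 and 0. In fits of only the compared groups, the genotype counts were 1 (young untreated females), 0 (young IFN-γ females) and 6 (old IFN-γ males), and the IFN-γ label counts were 0 and 1 (wild-type young and old females), 5 (wild-type old males), 8 (knock-in young females) and 1 (by age label, knock-in).

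Without the 2 knock-in old IFN-γ females of low X-inactivation transcript, or without knock-in young untreated females 2 and 5, IFN-γ label by age label in knock-in gave 1. Without wild-type old IFN-γ female 2 and young IFN-γ female 1, the genotype counts were 2, 3 and 5 (young untreated females, young IFN-γ females, old IFN-γ males), and the IFN-γ label counts 2 and 1 (wild-type old females, wild-type old males). With libraries alike in V segment use joined, the counts were 0 (genotype, old IFN-γ males), 0 (IFN-γ label, knock-in old females), 4 and 0 (IFN-γ label by age label, wild-type and knock-in) and 0 (genotype by age label, IFN-γ). With the replicate block they were 2 (genotype, young IFN-γ females), 0 (genotype, old IFN-γ males), 10 (IFN-γ label, wild-type old females), 4 (IFN-γ label by age label, wild-type) and 0 (genotype by age label, IFN-γ).

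Leaving out 1 library at a time gave genotype counts of 0 to 5 (young untreated females), 0 to 9 (young IFN-γ females), 0 to 3 (old untreated females), 0 to 3 (old IFN-γ females) and 0 to 2 (old IFN-γ males). It gave IFN-γ label counts of 12 to 25 and 2 to 22 (wild-type young and old females), 0 to 1 (wild-type old males), 0 to 3 and 0 to 1 (knock-in young and old females). For interactions it gave 6 to 10 and 0 to 3 (IFN-γ label by age label, wild-type and knock-in), 0 to 4 and 0 to 1 (genotype by age label, IFN-γ and untreated) and 0 to 1 (genotype by sex, young IFN-γ). The 3 calls came without knock-in replicate 4 (old untreated females) and without wild-type replicate 4 (old IFN-γ females).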
